A study of Mus musculus with 7 samples.

Results

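Cells with Gata4 messenger RNA were examined in the gonad of the mouse embryo at E11.5, where E counts days of embryonic development, before ovary and testis look different. A cell was a member if it had at least 1000 detected genes, at least 2 unique molecular identifiers (UMIs, each a counted molecule) of Gata4, at most 1 of Wnt6, at most 2 of Upk3b, and less than 20% of its UMIs in haemoglobin genes. The rule found 280 of the 7972 cells with 1000 genes, a share of 3.51% (95% exact binomial interval 3.12 to 3.94%), in a library of 8293 cells and a series of 52542. The series holds 7 libraries of 10x Genomics v2 single-cell RNA from dissected gonads or ovaries of wild-type C57BL/6J mice without treatment, 1 for each of 5 fetal ages (E11.5 to E18.5) and for postnatal days P1 and P5. Which cells came from which embryo is not given in the labels, and gonads of E11.5 and E12.5 were dissociated in trypsin for 20 min. The E11.5 library held 93067485 UMIs and the members 3626923 of them, with a median of 11861 UMIs and 3599 genes per member. Comparison cells were the 4248 cells of the same library with no Gata4 and at least 2 UMIs of Nr2f2, an orphan nuclear receptor of mesenchyme, under the same gene and haemoglobin limits, with a median of 11089.5 UMIs.

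The gonad begins as a thickening of the coelomic epithelium over the mesonephros, and its first somatic cells are able to form either an ovary or a testis. Gata4, a zinc-finger transcription factor, is needed for that thickening, and Wt1, Lhx9 and Nr5a1 are transcription factors without which the gonad fails to form or to survive. Gata4 is not restricted to the gonad, and is also known from the heart, from visceral mesoderm and from parts of the gut.

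A level is given as counts per 1e6 UMIs (CPM), the summed UMIs of a gene over all UMIs of a group of cells, with its 95% exact Poisson interval. Intervals hold the error of counting and nothing else: each age was measured in 1 library, cells are not replicates, and no test between groups was possible. Of the 4 genes that name gonadal progenitors, Gata4 chose the cells, and was at 2 UMIs in 149 members, 3 in 73, and at most 8. Wt1 was at 283 CPM (266 to 301) in members and 167 CPM (164 to 171) in comparison cells, a ratio of 1.69 (1.58 to 1.80). Lhx9 was at 146 CPM (133 to 159) against 26.8 CPM (25.5 to 28.3), a ratio of 5.42 (4.90 to 6.00). Nr5a1 was at 9.37 CPM (6.49 to 13.1) against 1.16 CPM (0.882 to 1.49). These sums hid a wide spread among members. Wt1 ranged from 0 to 32 UMIs with a median of 2 and had none in 102 members. Lhx9 ranged from 0 to 22 UMIs with a median of 0 and had none in 165. Nr5a1 was found in 23 members, each of which also had Wt1.

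The name therefore held for some members and not for all. Epcam, an adhesion molecule of epithelia, had no UMI in 196 members and 1 UMI in 18, and the other 66 had from 2 to 34. These 66 cells (23.6%) had Wt1 at 23.1 CPM (15.1 to 33.9), below the comparison cells, and Lhx9 at 15.1 CPM (8.82 to 24.2). Of the other 214 members, 110 (39.3%) had at least 1 UMI of Lhx9 and 104 (37.1%) had none. The members are described below as these 3 subsets, called the Epcam subset, the Lhx9 subset and the remaining subset. They were formed after the values had been seen and carry no cell type name. Gata4 itself was at 175 CPM (152 to 202), 243 CPM (217 to 271) and 229 CPM (202 to 257) in them. The Epcam subset was the deepest, with a median of 16158 UMIs against 11361 and 10794.5.

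**Figure D1:**
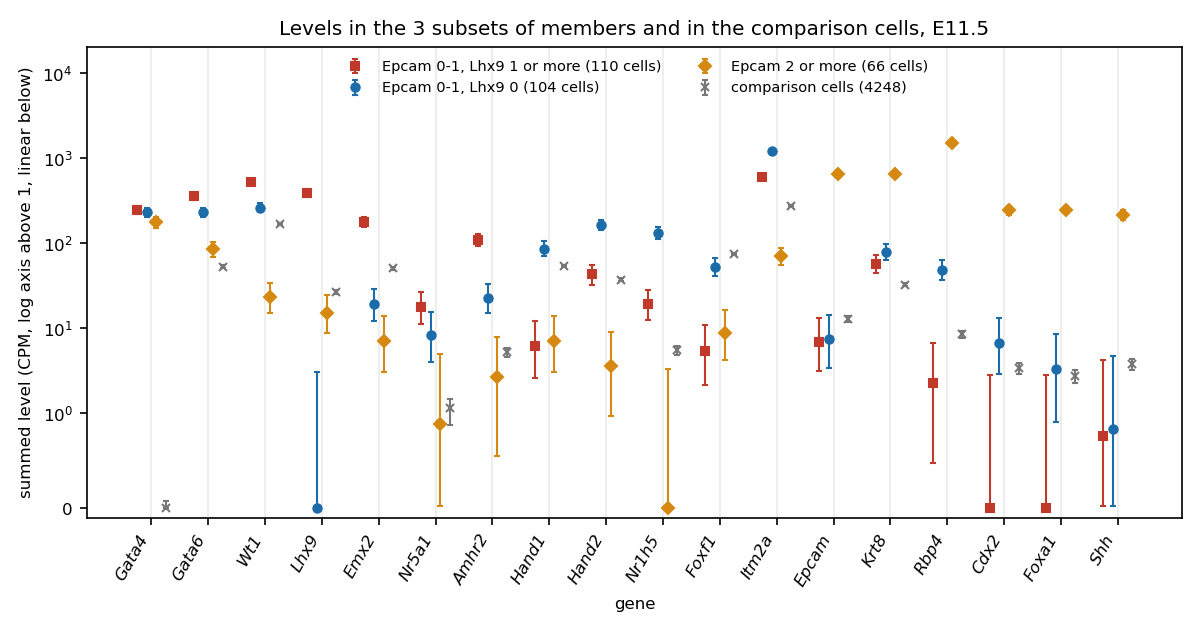
Summed level (CPM, log axis above 1 and linear below) of 18 genes in the Lhx9 subset (red squares, 110 cells), the remaining subset (blue circles, 104 cells), the Epcam subset (orange diamonds, 66 cells) and the comparison cells (grey crosses, 4248 cells) of E11.5, with 95% Poisson intervals. Wt1, Lhx9, Emx2 and Amhr2 are highest in the Lhx9 subset, Hand1, Hand2 and Nr1h5 in the remaining subset, and Epcam, Krt8, Rbp4, Cdx2, Foxa1 and Shh in the Epcam subset.

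Gata4 lies at chr14:63198922-63271692 on the minus strand of GRCm38, Lhx9 lies at chr1:138825186-138848577 on the minus strand, and Epcam lies at chr17:87635979-87651129 on the plus strand. To set sequence beside the genes, the 250 bases before the transcription start were searched for the GATA letters AGATAA or TGATAA on either strand in the RefSeq promoters of GRCm38.p6. They occurred in 16.6% of 32851 promoters, and in at least 1 promoter of 18.8% of 27025 genes. Printed below, with the letters in capitals, are a gene that was high in the Lhx9 subset (Amhr2), in the remaining subset (Nr1h5) and in the Epcam subset (Nepn), chosen because they hold the letters and no annotated exon, and Epcam, which does not hold them.
Amhr2 (chr15:102445117-102445366, plus strand): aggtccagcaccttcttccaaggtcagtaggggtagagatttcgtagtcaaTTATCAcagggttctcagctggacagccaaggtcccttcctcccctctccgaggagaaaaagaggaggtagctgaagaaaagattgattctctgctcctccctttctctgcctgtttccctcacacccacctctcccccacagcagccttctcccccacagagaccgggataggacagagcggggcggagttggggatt
Nr1h5 (chr3:102964134-102964383, minus strand): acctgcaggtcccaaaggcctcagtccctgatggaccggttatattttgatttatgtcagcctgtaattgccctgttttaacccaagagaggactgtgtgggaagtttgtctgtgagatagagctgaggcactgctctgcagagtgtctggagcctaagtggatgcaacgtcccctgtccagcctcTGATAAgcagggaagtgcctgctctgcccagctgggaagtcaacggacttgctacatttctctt
Nepn (chr10:52391358-52391607, plus strand): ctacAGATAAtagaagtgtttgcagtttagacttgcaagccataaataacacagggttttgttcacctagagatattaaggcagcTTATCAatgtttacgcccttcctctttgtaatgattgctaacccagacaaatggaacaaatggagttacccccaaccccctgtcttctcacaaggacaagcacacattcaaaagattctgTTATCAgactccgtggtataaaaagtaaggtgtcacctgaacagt
Epcam (chr17:87635729-87635978, plus strand): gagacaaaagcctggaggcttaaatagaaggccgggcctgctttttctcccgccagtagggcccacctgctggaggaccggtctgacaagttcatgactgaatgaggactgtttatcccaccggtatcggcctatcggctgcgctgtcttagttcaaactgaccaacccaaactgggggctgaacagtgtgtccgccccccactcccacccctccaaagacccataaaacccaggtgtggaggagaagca

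The Amhr2 match lies 199 bases before the start and the Nr1h5 match 64 bases before it. Nepn held 3 matches, at 246, 165 and 45 bases. The Nepn window lies within an annotated gene span, and the other windows lie outside annotated genes. These are matches of letters and were not tested as binding sites.

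The Epcam subset carried genes that were nearly absent from the other members. Rbp4, which carries retinol in blood, was at 1496 CPM (1426 to 1569.7) there, against 2.29 CPM (0.473 to 6.70) in the Lhx9 subset and 48.5 CPM (36.9 to 62.8) in the remaining subset, where 1 cell held 60.3% of its UMIs. It was found in 59 of the 66 cells, with a median of 10 UMIs and a highest of 180, and in 8 of the other 214 members. Cdx2, a homeobox factor of intestinal epithelium, was also found in 59 of the 66 cells and in 3 of the others, at 241 CPM (213 to 272). Foxa1, a forkhead factor of endoderm-derived epithelia, was at 245 CPM (217 to 276), and the hedgehog ligands Shh and Ihh were at 213 CPM (187 to 242) and 122 CPM (102 to 144). In the Lhx9 subset Cdx2, Foxa1 and Ihh had no UMI, which allows a level of up to 2.29 CPM (3 counts). Genes of plasma proteins were also high here: Ttr, a carrier of thyroxine, was at 255 CPM (227 to 287) and Apoa1, of high-density lipoprotein, at 308 CPM (276 to 342). Onecut2, a homeodomain factor, stood at 489.6 CPM (449.6 to 532), and Nepn, a small leucine-rich proteoglycan, at 398 CPM (362 to 437).

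Past 2-fold of CPM with 10 added, at 20 CPM or more in either group, 416 of 6987 genes were higher in the Epcam subset than in the other members (5.95%) and 436 lower (6.24%). The subset was chosen on Epcam, so these counts describe it. The tight-junction genes Cldn6 and Cldn7 were at 556 CPM (514 to 602) and 347 CPM (314 to 383). Pax2 and Pax8, paired-box factors that define mesonephric tubules, were found in 1 and 1 of the 66 cells. Mesenchymal genes were low: 13 of 15 tested genes of that list were lower in the Epcam subset and none higher, among them the collagens Col1a1 and Col3a1 and the receptor Pdgfra. Each of the 7 tested posterior Hox genes was lower as well (Hoxa9, Hoxa10, Hoxb9, Hoxc9, Hoxc10, Hoxd9 and Hoxd10), and so were 14 of 23 matrix genes. In the whole library 466 of the 7719 cells that met the gene and haemoglobin limits had at least 2 UMIs of Epcam.

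The Lhx9 subset had the highest levels of the early gonad genes. Wt1 was at 526 CPM (487 to 566) and was found in 93 of the 110 cells, with a median of 5 UMIs. Emx2, a homeobox factor of the urogenital system, was at 178 CPM (156 to 202) against 19.3 CPM (12.2 to 28.9) in the remaining subset, a ratio of 9.25 (6.01 to 14.9). Amhr2, the receptor of anti-Müllerian hormone, stood at 109 CPM (92.1 to 129) against 22.6 CPM (14.9 to 32.9). Nr5a1 did not separate the subsets beyond counting error, at 17.6 CPM (11.1 to 26.4) against 8.37 CPM (4.01 to 15.4), a ratio of 2.10 (0.961 to 4.94), and 16 of the 110 cells had a UMI of it. Hoxd9, a posterior Hox gene, was at 139.8 CPM (120.3 to 162) against 30.1 CPM (21.1 to 41.7), and Aldh1a2, which makes retinoic acid, at 153 CPM (132 to 176) against 36.0 CPM (26.0 to 48.5).

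Against the remaining subset, 90 of 6602 genes were higher in the Lhx9 subset (1.36%) and 62 lower (0.939%). Transcription factors known from other mesoderm were among the genes higher in the remaining subset. Hand1 was at 86.2 CPM (70.4 to 105) in it against 6.11 CPM (2.64 to 12.04) in the Lhx9 subset, and Hand2 at 163 CPM (141 to 188) against 42.8 CPM (32.3 to 55.6). Both are basic helix-loop-helix factors known from heart, limb and lateral mesoderm. Foxf1, a forkhead factor of splanchnic mesoderm, stood at 52.7 CPM (40.5 to 67.5) against 5.35 CPM (2.15 to 11.02). Against comparison cells the order differed by gene, with Foxf1 higher in comparison cells, at 74.4 CPM (72.0 to 76.8), and Hand1 lower in them, at 53.7 CPM (51.7 to 55.7). Nr1h5, a nuclear receptor gene, was at 132 CPM (112 to 155) against 19.1 CPM (12.4 to 28.2). The imprinted genes Cdkn1c, a cyclin-dependent kinase inhibitor, and Dlk1, a Notch-like surface protein, were at 2764 CPM (2670.4 to 2859.8) and 1443 CPM (1376 to 1513), against 1577 CPM (1509.6 to 1646) and 652 CPM (609 to 698). Wt1 was found in 78 of the 104 cells of the remaining subset, at 261 CPM (233 to 292).

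Each of these subsets was also set against the comparison cells. In the Lhx9 subset 171 of 6468 genes were higher (2.64%) and 79 lower (1.22%), with Amhr2 20.8-fold (16.9 to 25.6) higher and Gata6, a close relative of Gata4, 6.67-fold (6.03 to 7.37) higher. In the remaining subset 100 of 6463 were higher (1.55%) and 49 lower (0.758%), with Nr1h5 24.0-fold (19.6 to 29.2) and Gata5, another relative of Gata4, 13.6-fold (10.4 to 17.5) higher. Pf4, a megakaryocyte chemokine, also ranked among the higher genes of the Lhx9 subset, but 1 cell held 91.7% of its UMIs.

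Depth enters a split on 1 UMI. Nr2f2, which the rule left free, was found in 84.3% (79.5 to 88.3%) of members, and in 68.1% of 270 members after each cell was thinned to 5000 UMIs, with 10 shallower members left out. For Lhx9 the shares were 41.1% (35.3 to 47.1%) and 33.7%. Red blood cells, which should lack these genes, give a background of free RNA. In 253 cells with at least 20% haemoglobin, at a median of 21828 UMIs, Nr2f2 was found in 13.4% of cells, Wt1 in 11.1%, Lhx9 in 3.56%, Nr5a1 in 0.395% and Gata4 in 1.98%. For the genes other than Gata4, which chose the members, all members together lay above these shares. In the Epcam subset Wt1 was found in 10.6% (4.37 to 20.6%) and Lhx9 in 7.58% (2.51 to 16.8%) of cells, intervals that hold the shares of the red blood cells at these unequal depths. After thinning to 5000 UMIs Wt1 was in 6.15% (1.70 to 15.01%) of the Epcam subset and 5.53% (3.06 to 9.11%) of red blood cells, which overlap. For Lhx9 the thinned shares were 4.62% (0.962 to 12.9%) and 0.791% (0.0959 to 2.83%), from 3 and 2 cells, and the interval of the subset lay above the red blood cell share although the intervals overlap. Haemoglobin genes held a median of 58.7% of the UMIs of the red blood cells and 0.102% in the Epcam subset. Thinning therefore left the depth over other genes unequal, lower in the red blood cells.

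Levels of Wt1, Lhx9 and Gata6 just outside the Gata4 threshold lay between those of members just inside it and those of cells with no Gata4. The 149 members with 2 UMIs of Gata4 had 278, 141, 229.9 and 176 CPM of Wt1, Lhx9, Gata6 and Epcam. The 419 cells with 1 UMI that met each other limit had 212, 112, 189 and 172 CPM. The 6388 cells with no Gata4 had 122, 21.5, 49.0 and 26.0 CPM. Epcam at 1 and at 2 UMIs of Gata4 had overlapping intervals, 159.8 to 184 and 156 to 197 CPM. Nr5a1 did not follow this order either, at 8.75 CPM (4.90 to 14.4) with 2 UMIs of Gata4, 9.18 CPM (6.59 to 12.45) with 1 and 1.05 CPM with none. Among members with 2, 3, 4 and 5 or more UMIs of Gata4, Wt1 was at 278, 284, 368 and 217 CPM and Lhx9 at 141, 122, 287 and 81.8 CPM, both highest at 4 UMIs (32 cells) and lowest at 5 or more (26 cells). Rbp4 was at 293, 387, 400.5 and 1450.4 CPM and Epcam at 176, 231, 155 and 286 CPM, both highest at 5 or more. Depth rose over the same groups, with medians of 10485, 12460, 12652 and 14959 UMIs per cell. The Epcam subset was the deepest of the subsets but had the lowest Gata4 level in CPM, as given above. What part depth had in these orders was not tested.

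**Figure D2:**
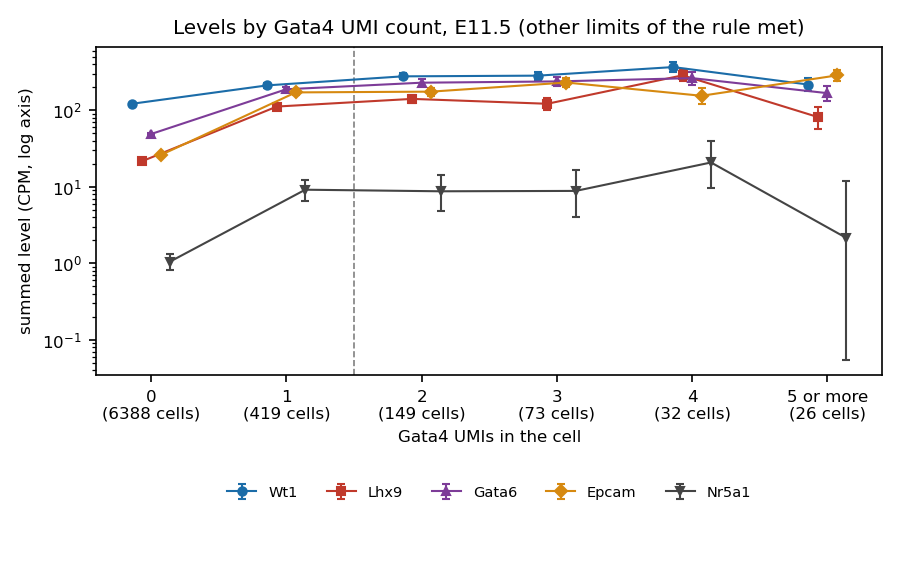
Summed level (CPM, log axis) of 5 genes in E11.5 cells grouped by their Gata4 UMIs, with the other limits of the rule met and 95% Poisson intervals; cells right of the dashed line are members. The step lies between 0 UMIs (6388 cells, Lhx9 at 21.5 CPM) and 1 UMI (419 cells, 112 CPM), left of the line.

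Across all members, 143 of 6492 genes were higher than in comparison cells (2.2%) and 56 lower (0.863%). Both groups were chosen on Gata4, and the comparison cells on Nr2f2 as well, so these counts are a description. The leading higher genes were mostly those of the Epcam subset. Of the 20 with the largest ratios, 3 (Rbp4, Kctd14 and Krt8) stayed past 2-fold once cells with at least 2 Epcam UMIs were left out of both groups, and 17 did not. The place of Rbp4 among the 3 rested on 1 cell, which held 35 of its 61 UMIs in these 214 members. Without it Rbp4 fell from 24.4 to 10.4 CPM and was no longer past 2-fold, against 2.84 CPM in comparison cells. Apoa1, 20.7 (17.6 to 24.5) times as high in all members, then lay slightly below the comparison cells. Each of the 15 leading lower genes stayed past 2-fold.

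**Figure D3:**
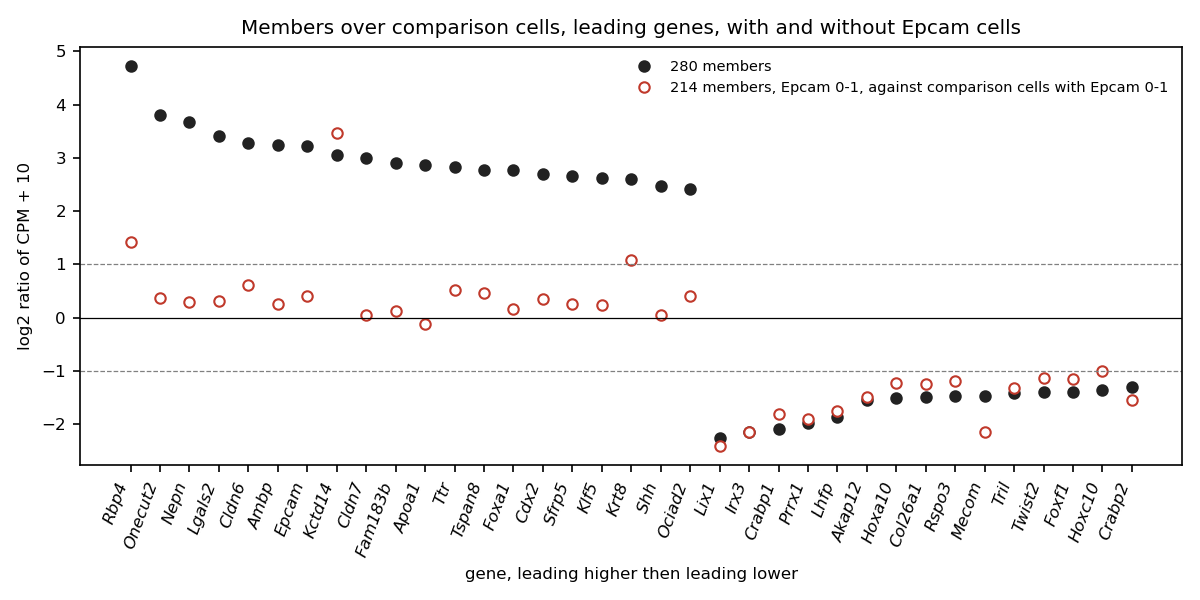
Log2 ratio of CPM with 10 added, members over comparison cells, for the 20 leading higher and 15 leading lower genes. Black points are all 280 members and open red points the 214 members with 0 or 1 Epcam UMI against comparison cells under the same limit; dashed lines mark 2-fold. Without the Epcam cells 17 of the 20 higher genes lie below the upper dashed line, whereas the 15 lower genes keep their side.

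The 214 members outside the Epcam subset, set against all comparison cells, had 110 of 6406 genes higher (1.72%) and 50 lower (0.781%). Kctd14 led at 284 CPM against 16.4 CPM, but 1 cell gave 26.1% of its UMIs and 46 of 214 cells had any. Next came Lhx9 at 204 CPM against 26.8 CPM, Myl7, a myosin light chain, at 113 CPM against 12.45 CPM, and Nr1h5 at 73.1 CPM against 5.51 CPM. Amhr2 was at 67.9 CPM against 5.24 CPM. Gata6 was at 293 CPM against 52.8 CPM and was found in 185 of the 214 cells, the widest of these genes that are named here. Further down the order were Tnni1, a slow-muscle troponin, at 224 CPM against 43.2 CPM and Hlx, a homeobox factor of visceral mesoderm, at 146 CPM against 34.5 CPM. Bambi, a decoy receptor of BMP and TGF-beta signals, was at 169.8 CPM against 55.8 CPM. The GATA letters searched above occurred in promoters of 8 of the 17 of these 20 leading genes that RefSeq listed, and of 4 of 15 for the 20 leading genes of all members, beside 18.8% of all genes. These counts were not tested.

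Lix1, Irx3 and Crabp1 lay furthest below the comparison cells among the genes ranked. Lix1 was at 7.44 CPM (4.91 to 10.8) in members against 74.3 CPM (71.9 to 76.6) in comparison cells. Irx3, an Iroquois homeobox factor, was at 6.89 CPM (4.46 to 10.2) against 64.8 CPM (62.6 to 67.0). Crabp1, a retinoic acid binding protein, was at 60.4 CPM (52.6 to 68.9) against 289.6 CPM (285 to 294). Prrx1, a homeobox factor of limb mesenchyme, was 5.17-fold (4.18 to 6.46) lower, and Hoxa10 3.73-fold (2.98 to 4.72) lower. Rspo3, a potentiator of Wnt signalling, was at 16.8 CPM (12.9 to 21.6) against 65.0 CPM (62.8 to 67.2), and Twist2, a helix-loop-helix factor of mesenchyme, was 3.59-fold (2.80 to 4.70) lower.

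Lists of genes by role are given with their median log2 ratio, beside 0.02 for all 6492 genes. Of those 6492 genes 2.2% were higher and 0.863% lower, the shares to set beside the counts in lists here and below. The counts in lists were not tested against these shares. Of the regulators of the early gonad, Gata6 was 4.33-fold (4.003 to 4.68) and its cofactor Zfpm2 4.15-fold (3.20 to 5.34) higher. Of 17 mesenchymal genes none was higher and Foxd1 and Lum were lower (median -0.42), but their summed level split the members, at 909 CPM in the Epcam subset, 4019 CPM in the Lhx9 subset and 6412 CPM in the remaining subset. Of 11 genes for coelomic epithelium 5 were higher, each a keratin or Cdh1 (median 0.97). The Epcam subset carried most of this: Krt8, Krt18, Krt19 and Cdh1 were past 2-fold higher in it than in the other members, and 43 of the 45 members with Cdh1 were in it, whereas Upk3b, Lrrn4, Aldh1a2, Bnc1, Bnc2, Tbx18 and Rspo1 were lower in it. The list summed to 1658 CPM there, 762 CPM in the Lhx9 subset and 396 CPM in the remaining subset. Among 9 supporting-cell genes Kitl, the ligand of Kit, was higher and Fst, Irx3 and Irx5 lower (median -0.53), while Foxl2, Ptgds and Sprr2d had no UMI in members. Sry, also of this list, had none in any library. Of 12 anterior Hox genes 1, Hoxb5, was lower (median -0.73), and of 7 posterior ones Hoxa10 and Hoxc10 were lower (median -0.80), with none higher in either list.

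Among signalling genes, the hedgehog and retinoic acid genes that were higher were those of the Epcam subset. Shh and Ihh were the higher genes among 6 of the hedgehog list (median -0.13), and Rbp4 among 9 retinoic acid genes, where Rdh10, Crabp1 and Crabp2 were lower (median -0.81). Bambi was higher and Fst lower among 14 BMP and TGF-beta genes (median 0.30). Of 14 Wnt genes Dkk2 and Rspo3 were lower (median -0.12), and none of 4 Notch genes (median -0.15) or 16 growth factor genes (median -0.03) passed 2-fold. Tnc was higher and Lum lower among 23 matrix genes (median -0.01), and Mest was lower among 15 imprinted genes (median 0.06). None of 18 S-phase genes (median -0.22) or 19 G2 and M genes (median 0.04) passed 2-fold, and of 3 cell cycle inhibitors Cdkn1a was higher (median 0.06). Of the 67 members with Cdkn1a 56 were in the Epcam subset, at 204 CPM (178 to 232). In the Lhx9 and remaining subsets it was at 16.0 and 38.5 CPM, with 85.7% and 78.3% of the UMIs in 1 cell.

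Markers of other cells were measured as sums. Endothelial genes came to 87.1 CPM in members and 127 CPM in comparison cells, led by Egfl7 at 38.6 CPM, with Tie1 at 0. Immune genes came to 4.96 CPM in members and 16.0 CPM in comparison cells, led by Tyrobp at 1.38 CPM, with Ptprc, Cx3cr1, Lyz2 and Lcn2 at 0. Germ cell genes came to 68.1 CPM in members and 59.1 CPM in comparison cells, led by Ifitm3 at 31.4 CPM, with Dppa3 at 0. Few genes of these lists reached 20 CPM and could be compared, 2 endothelial, 1 germ cell and 0 immune genes, and none of those compared passed 2-fold. Erythroid genes came to 984 CPM in members and 971 CPM in comparison cells, led by Hbb-y at 592 CPM, and neural genes to 32.8 CPM in members and 61.8 CPM in comparison cells, led by Stmn2 at 9.93 CPM. Muscle genes came to 322 CPM in members and 483 CPM in comparison cells, led by Tagln at 99.3 CPM, and the smooth-muscle actins Acta2 and Actg2 were lower. Steroidogenic genes came to 106 CPM in members and 97.4 CPM in comparison cells, led by Fdx1 at 45.2 CPM, with Cyp17a1, Hsd3b1, Insl3 and Cyp21a1 at 0. The mesonephric tubule list came to 756 CPM in members and 84.2 CPM in comparison cells and to 2230 CPM in the Epcam subset, led by Krt8 at 249 CPM, with Emx1 and Cdh16 at 0. That list holds Epcam, which chose the subset and gave 639 CPM of this sum, and its other abundant genes there (Krt8, Cldn6 and Cldn7) are general to epithelia, so the sum says nothing particular of tubules. What part free RNA or cells captured in pairs had in these levels was not tested.

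Cells of E11.5 with at least 2 UMIs of Wnt6, a Wnt ligand, and at most 2 of Upk3b, an uroplakin of mesothelium, are called Wnt6 cells, and cells with at least 3 of Upk3b are called Upk3b cells. Both are groups that the rule set apart from members, but they overlap with the comparison cells. Of the comparison cells 36 were also Wnt6 cells and 220 were also Upk3b cells. Of 428 cells with 2 or more Gata4 UMIs, 97 had too much Wnt6 and 57 too much Upk3b to be members. The 212 Wnt6 cells had more Nr5a1, at 69.1 CPM (59.3 to 80.1) with a UMI in 46.2% (39.4 to 53.2%) of cells, against 8.21% (5.28 to 12.1%) of members. After thinning to 5000 UMIs the shares were 27.7% and 5.19%. Of all 247 cells with Nr5a1, 98 were Wnt6 cells and 23 were members. The 420 Upk3b cells had Nr5a1 at 8.41 CPM (6.22 to 11.1), near the level of members.

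Against Wnt6 cells, 223 of 6746 genes were higher in members (3.31%) and 307 lower (4.55%). The higher genes again began with Rbp4, Onecut2 and Nepn of the Epcam subset. In the Lhx9 subset alone 206 of 6658 were higher (3.09%) and 244 lower (3.66%). Kctd14 was at 307 CPM (278 to 339) in it and at 3192 CPM (3123 to 3262) in Wnt6 cells. Lgals7, a galectin, was at 73.3 CPM (59.4 to 89.6) against 572 CPM (543 to 602), and the chemokine gene Cxcl14 at 0.764 CPM (0.0193 to 4.26) against 145 CPM (130.5 to 160.4). Other genes were higher in the Lhx9 subset: Ptn, the growth factor pleiotrophin, by 7.20-fold (6.43 to 8.07), Tbx18, a T-box factor, by 16.2-fold (10.2 to 27.3), Sfrp2, a secreted Wnt modulator, by 13.0-fold (8.91 to 19.4), and Tcf21, a helix-loop-helix factor of urogenital mesenchyme, by 6.28-fold (4.84 to 8.22). Wt1 was nearer, at 526 CPM (487 to 566) against 590.4 CPM (561 to 621). The 19 genes for G2 and M summed to 3889.5 CPM in the Lhx9 subset, 4307 CPM in all members and 1835 CPM in Wnt6 cells.

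Against Upk3b cells, 123 of 6523 genes were higher in members (1.89%) and 49 lower (0.751%). In the Lhx9 subset alone the shares of 6459 genes were 1.56% and 0.96%. Lower in members were Fst, an activin antagonist, at 3.86 CPM (2.11 to 6.48) against 56.1 CPM (50.2 to 62.6), and Gata2, a relative of Gata4, at 3.58 CPM (1.91 to 6.13) against 53.4 CPM (47.6 to 59.7). Lum, a matrix proteoglycan, was at 9.93 CPM (6.95 to 13.7) against 77.8 CPM (70.8 to 85.3), and Aldh1a2 at 72.5 CPM (64.0 to 81.8) against 273 CPM (260.0 to 287). The Lhx9 subset differed further in Foxf1, at 5.35 CPM (2.15 to 11.02) against 134 CPM (124 to 143), and in Hand1, at 6.11 CPM (2.64 to 12.04) against 83.2 CPM (76.0 to 91.0). The remaining subset had Hand1 near the Upk3b cells, at 86.2 CPM. Zeb2, a zinc-finger repressor of epithelial genes, was 6.24-fold (5.04 to 7.76) higher in the Lhx9 subset.

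Members varied among themselves in further genes. The variance of UMIs over their mean, at 5000 UMIs per cell and a mean of at least 0.2, had a median of 1.07 over 3753 genes. Kctd14 had the highest value, 31.9, with 75 UMIs in 1 of 270 members. It was followed by the nuclear RNA Malat1 (22.1), Rbp4 (18.48), Akr1cl, an aldo-keto reductase gene (16.0), the actins Actb (15.1) and Actc1 (14.0), and Itm2a, a membrane protein (12.6). Itm2a, Cdkn1c and the imprinted RNA Meg3 were graded over the subsets, with means of 6.08, 13.2 and 12.03 UMIs in the remaining subset, 2.81, 6.89 and 6.28 in the Lhx9 subset and 0.385, 2.40 and 4.97 in the Epcam subset. Among the 15 highest were also Ptn (9.19), Nepn (8.72), Sfrp2 (8.53), Apoa1 (7.71) and Acta2 (6.89). Wt1 and Lhx9 had 2.84 and 3.01.

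The E12.5 library, labelled ovary, held UMIs of 4 Y-linked genes (Ddx3y, Eif2s3y, Kdm5d and Uty) in 7.705% of its cells with 1000 genes. Its values are therefore given with all cells, and then without those that had such a UMI. The same rule found 168 cells at E12.5, 3.96% (3.39 to 4.59%) of 4244 cells with 1000 genes, and 1452 comparison cells. Few of them resembled the Epcam subset: 4 of the 168 cells had at least 2 Epcam UMIs, and Rbp4 was at 1.68 CPM (0.458 to 4.30). Across 6420 genes at E12.5, 1.15% were past 2-fold higher than in comparison cells and 2.09% lower. Of the 20 leading genes of all E11.5 members 4 reached 20 CPM at E12.5 and 1, Kctd14, was past 2-fold higher. Of the 20 leading genes outside the Epcam subset 17 reached 20 CPM and 8 were past 2-fold higher (Kctd14, Lhx9, Myl7, Akr1cl, Rpp25, Tnni1, Ifitm1 and Lgals7). Lhx9 was at 282 CPM (261 to 304) against 64.0 CPM (60.05 to 68.1), with a UMI in 81.0% of the 168 cells. Nr5a1 was at 31.5 CPM (24.8 to 39.5) against 8.48 CPM (7.09 to 10.1), with a UMI in 33.9% (26.8 to 41.6%) of them. Hand1 and Nr1h5, high in the remaining subset at E11.5, had no UMI in either the rule cells or the comparison cells of E12.5. Of the 15 lower genes 12 reached 20 CPM and 7 were past 2-fold lower at E12.5 (Crabp1, Prrx1, Lhfp, Akap12, Hoxa10, Rspo3 and Twist2).

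Of the 168 rule cells of E12.5 27 had a Y-linked UMI and no Xist, the RNA that coats the inactive X chromosome, and 16 had both. With all cells that had a Y-linked UMI left out, 1.7% of 6477 genes were past 2-fold higher and 2.47% lower. Of the 20 leading genes outside the Epcam subset 11 were then past 2-fold higher, and Lhx9 was at 306 CPM against 57.8 CPM. At the 5 later ages, in order of age, the rule took 321, 933, 206, 242 and 263 cells. Their Lhx9 levels were 161, 52.8, 73.4, 29.5 and 18.3 CPM, and their Wt1 levels 346, 282, 287, 352 and 297 CPM. Lhx9 was highest at E12.5 and lowest at P5 among the 7 libraries, whereas Wt1 stayed between 254 and 352 CPM.

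**Figure D4:**
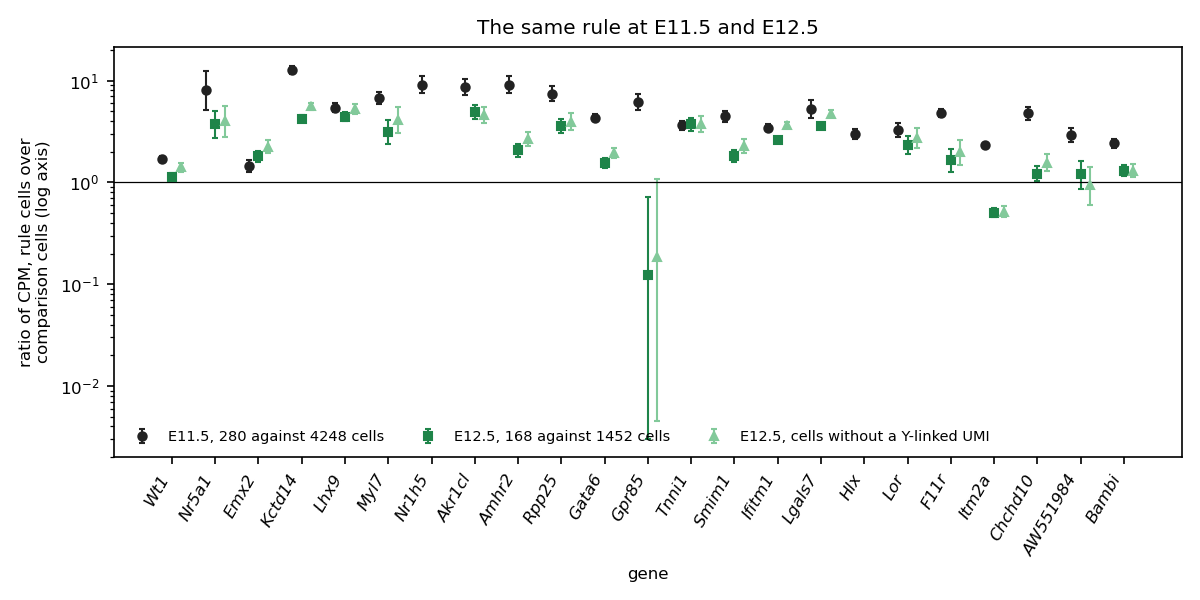
Ratio of CPM (log axis) of rule cells over comparison cells at E11.5 (black, all members) and E12.5 (green; light green without cells that had a Y-linked UMI), with 95% intervals, for Wt1, Nr5a1, Emx2 and the 20 leading genes outside the Epcam subset; a ratio with a group at 0 UMIs is not drawn. Kctd14 and Lhx9 lie above 4 at both ages, and Itm2a lies above 1 at E11.5 and below 1 at E12.5.

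The E11.5 library held cells of both sexes. Of the members 109 had a Y-linked UMI and no Xist (XY cells), 129 had Xist and no Y-linked UMI (XX cells), 22 had both and 20 neither. A Y-linked UMI was present in 46.8% (40.8 to 52.8%) of members and 26.7% (25.4 to 28.1%) of comparison cells. It was present in 44.8% (38.0 to 51.8%) of Wnt6 cells, 37.1% (32.5 to 42.0%) of Upk3b cells and 37.2% (32.6 to 42.1%) of cells with 1 UMI of Gata4, so a share above that of comparison cells was not particular to members. The subsets differed in this share, which was 30% (21.6 to 39.5%) in the Lhx9 subset, 54.8% (44.7 to 64.6%) in the remaining subset and 62.1% (49.3 to 73.8%) in the Epcam subset. Both kinds of UMI occurred in 3.64%, 8.65% and 13.6% of their cells. The part of depth and of cells captured in pairs in these shares was not tested, and embryos cannot be told apart.

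**Figure D5:**
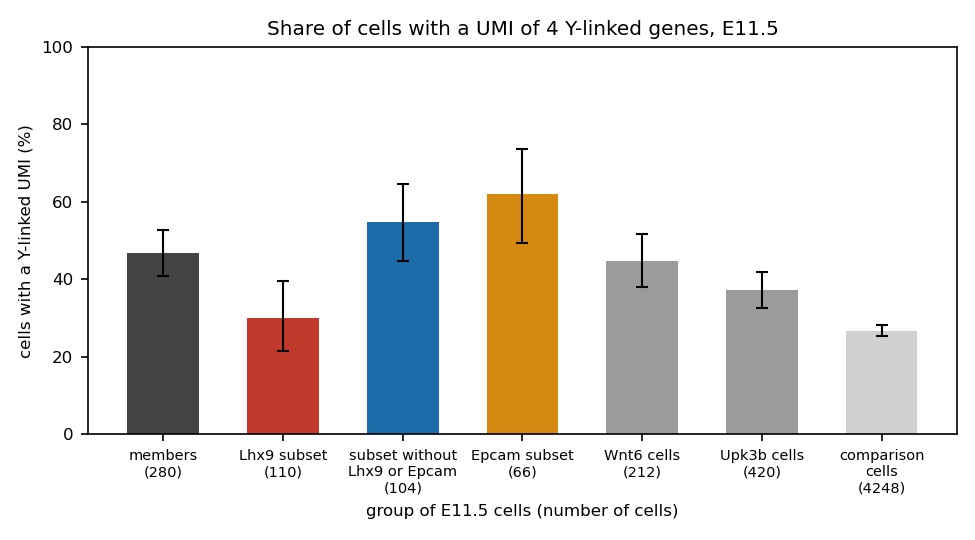
Share of E11.5 cells (%) with at least 1 UMI of 4 Y-linked genes, with 95% exact binomial intervals; the number of cells is under each bar. The Lhx9 subset (30%) lies near the comparison cells (26.7%), and the remaining (54.8%) and Epcam (62.1%) subsets lie above both. The comparison cells include 36 of the Wnt6 cells and 220 of the Upk3b cells.

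With Y-linked genes, Xist and Tsix apart, 185 of 6683 genes were past 1.5-fold higher in XY than in XX members (2.77%) and 148 lower (2.21%). Among the more numerous comparison cells the same counts were 1.73% and 1.41% of 6169 genes. The genes that led in XY members included those of the Epcam subset, which held 32 XY and 21 XX cells. Rbp4 was at 752 CPM (706 to 799.7) against 167 CPM (149 to 188), Onecut2 at 230.4 CPM (206 to 257) against 48.6 CPM (38.7 to 60.2), and Ihh at 61.5 CPM (49.0 to 76.2) against 15.2 CPM (9.94 to 22.3). Genes lower in XY members rested partly on single cells. In XX members 1 cell held 97.1% of the UMIs of Myog, a factor of skeletal muscle, 1 cell 96.7% of those of Pf4, and 1 cell 78.3% of those of Actc1, cardiac actin. Hoxc10 was spread over 50 of the 129 XX cells, at 91.9 CPM (78.1 to 107) against 12.6 CPM (7.34 to 20.2) in XY members. Aldh1a2 was spread over 58, at 118 CPM (102 to 135) against 26.7 CPM (18.7 to 36.9). It was also higher in the Lhx9 subset than in the remaining subset, and the Lhx9 subset held 29 XY and 66 XX cells. What part the mix of subsets had in the difference between XX and XY members was not tested. Within the Lhx9 subset, on these 29 XY and 66 XX cells, 9.17% and 9.15% of 6819 genes were past 1.5-fold higher and lower in XY cells. The shares were 10.3% and 7.22% in the Epcam subset. In the remaining subset, with 48 XY and 42 XX cells, they were 7.84% and 7.97%. Each subset had fewer cells than all members, and what part counting error had in these larger shares was not tested. Sry, the testis-determining gene, had no UMI in any of the 7 libraries, and whether the gene model or the 3-prime chemistry used here can detect it was not tested.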

How the data were processed

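Per the labels, the authors made the counts with Cell Ranger 3.1.0 against a 10x Genomics mm10 index. The deposited values are raw UMI counts of 31053 genes per cell. Seurat, also named in the submitters' processing notes, was not used. Members and gene lists were chosen with earlier results of these data known. CPM, intervals and ratios were computed in Python 3.11.15 (numpy 2.4.6, scipy 1.17.1, pandas 2.3.3) with code tested on simulated data. Named genes were the 20 highest and 15 lowest ratios against comparison cells (10 each way in other contrasts, and the 15 most variable genes) at 50 CPM, or 20 CPM between XY and XX cells, without rule, mitochondrial and ribosomal protein genes, and genes of the lists. The subsets and genes leading within them were chosen after their values were seen. Thinning used seed 1. Doublets were kept, since the automatic threshold of Scrublet (scanpy 1.11.5) marked 0.0242% of E11.5 cells and had not worked; an alternative left out the highest 5% of scores, which held 20 of 280 members. Of the members' barcodes 22 occurred in another library. Positions are from GENCODE vM21, and promoters from RefSeq. Alternatives changed the rule, the filters and the added CPM. 1 symbol of the lists was not matched, and some listed genes are not reported here.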

Additional observations from a re-analysis of the deposited data

Results flagged for a closer look

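Epcam and Klf5, a Krüppel-like factor of epithelia, were higher in rule cells than in comparison cells at E11.5, with log2 ratios of 3.22 and 2.62, and lower at E12.5, with -1.29 and -1.21. Irx3 went the other way, from -2.15 at E11.5 to 1.11 at E12.5, where it was at 34.9 CPM (27.8 to 43.2) against 10.7 CPM (9.18 to 12.51). Each age is 1 library, and the differences between ages were not tested.

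Y-linked UMIs appeared in 7.705% of cells (6.92 to 8.55%) of the E12.5 library, labelled ovary, and in at most 0.205% of cells of each later library.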

How the results depend on the processing

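The share of members in the library was 8.77% with a Gata4 minimum of 1 UMI, 1.64% with 3, 1.72% with the rule applied to thinned cells, 3.95% of cells with at least 2000 genes, 2.58% with Wnt6 and Upk3b at 0, 5.37% with no limit on either, and 2.85% without Epcam cells. The 1 CPM setting for the added value gave 219 genes higher and 93 lower than in comparison cells, 400 higher than in Wnt6 cells, 185 higher than in Upk3b cells, and 369 higher and 291 lower in XY than in XX members. The 50 CPM setting for it gave 39 genes higher and 7 lower than in comparison cells, 54 higher than in Wnt6 cells, 32 higher than in Upk3b cells, and 34 higher and 30 lower in XY than in XX members. A filter of 50 CPM gave 74 genes higher and 25 lower than in comparison cells, 125 higher than in Wnt6 cells, 58 higher than in Upk3b cells, and 68 higher and 53 lower in XY than in XX members. Counts between XY and XX members moved to 106 higher and 96 lower with a Gata4 minimum of 1 UMI, 501 and 379 with 3, 643 and 421 with the thinned rule, 321 and 245 with no filter, 307 and 231 with 2 UMIs needed for either call, and 260 and 250 without Epcam cells. Nr2f2 was found in 60.5% of members under the thinned rule, 79.0% with no limit on Wnt6 or Upk3b, and 88.8% without Epcam cells. Under the thinned rule 2 of the 20 leading genes were past 2-fold higher at E12.5. The log2 ratio of Apoa1 was 2.86 and was -0.12 without Epcam cells. Leaving out Epcam cells, cells of E12.5 with a Y-linked UMI, or the highest cell of a gene was chosen after seeing the data. Beyond settings that redefine the cells, the cause of these shifts was not tested. In all checks 94 values for single genes moved past the limit set for them, 32 of them with 50 CPM added, 21 with 1 CPM added, 19 without Epcam cells and 12 with no limit on Wnt6 or Upk3b. In the others 87 values for the comparisons and 628 for single genes moved less than that. No paired analysis was possible because each age has 1 library, and for the same reason no replicate could be left out. Genes under 20 CPM in both groups were not compared, and the smallest subset had 1123320 UMIs.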
